A study of Mus musculus with 7 samples.

Results

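The nuclear genes for subunits of the oxidative phosphorylation machinery were examined in RNA-seq libraries of primary mouse oligodendroglia with and without the Krüppel-like transcription factor KLF13. Members were chosen by symbol, taking names that begin like those of the subunit families of complexes I to V and leaving out pseudogenes. This gave 88 genes out of 49315 gene identifiers. Of these, 38 belong to complex I, 4 to complex II, 8 to complex III, 19 to complex IV and 16 to complex V, and 3 carry a similar name without being a subunit. Ndufa4 was placed in complex IV, where its protein resides. The libraries came from 4 control cultures (Klf13-wt) and 3 knockout cultures (Klf13-ko). Oligodendrocyte precursors were shaken off mixed glial cultures from brains of newborn pups of both sexes, depleted of microglia and kept in SATO medium, which contains thyroid hormone, for 6 days. The deletion was not restricted to oligodendroglia, so that other cells in the knockout cultures lacked KLF13 as well. The labels call the libraries biological replicates and do not say how many pups each culture held.

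Oxidative phosphorylation takes place in the inner mitochondrial membrane. Complexes I and II feed electrons from NADH and succinate into the ubiquinone pool, complex III passes them on to cytochrome c, complex IV hands them to oxygen, and complex V, the ATP synthase, uses the proton gradient that complexes I, III and IV build up. Most subunits are encoded in the nucleus and translated in the cytosol, whereas the mitochondrial genome supplies core subunits of every complex except complex II. Oligodendrocytes are known to have a high energy demand while they synthesize myelin and to rely more on glycolysis once they are mature.

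The libraries held 24507471 to 59596479 counts. Levels below are normalized CPM values, that is counts scaled to a common library size, and values are listed for control replicates 1 to 4 and then for knockout replicates 1 to 3. Klf13 itself was at 248, 268, 273 and 243 CPM in the controls and at 18.2, 19.9 and 21.9 CPM in the knockouts, a log2 fold change of -3.68 ± 0.09 (SE, adjusted p = 7e-06), as labelled. Defining markers of oligodendrocytes were present in all libraries, but their summed level was 23050 to 27220 CPM in controls and 6377 to 7190 CPM in knockouts, and 8 of 8 were lower. Of 6 markers of precursors 2 were higher, with sums of 3187 to 3387 CPM in controls and 4017 to 4065 CPM in knockouts that did not overlap. Of 10 neuronal markers 10 were higher, with sums of 532 to 762 CPM in controls and 1178 to 1498 CPM in knockouts, and of 8 astrocyte markers 7 were higher, with sums of 3362 to 3822 CPM and 5085 to 5778 CPM. Of 8 microglial markers 0 passed, also at an unadjusted p under 0.05 (sums of 352 to 1677 CPM and 336 to 738 CPM), and 1 of 4 tested endothelial markers was lower (10.2 to 25.4 CPM and 9.06 to 12.6 CPM). Of 8 fibroblast and mural markers 1 was lower and 6 had an unadjusted p under 0.05, with sums of 409 to 1752 CPM and 182 to 426 CPM and a median log2 fold change of -2.07. With the replicate number as a blocking term 1 precursor, 10 neuronal and 6 astrocyte markers were higher, whereas 5 fibroblast and mural markers and the astrocyte marker S100b (adjusted p = 0.020) were lower. Control replicate 3 had the highest microglial and fibroblast sums. The part of these shifts in cell makeup in the results below was not tested, and in such bulk samples a change in the share of a cell type cannot be told apart from a change in RNA per cell.

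The log2 fold change of KLF13-deficient against control oligodendroglia was above 0 for most members, by small amounts, but most members did not pass. After the filter on low counts 82 of the 88 members could be tested. The adjusted p was at most 0.05 with a higher level in the knockout for 31 members, or 37.8%, against 11.6% of all 18352 tested genes. A single member, Ndufv3, passed in the opposite direction, against 12.2% of all tested genes. In either direction 23.8% of all tested genes passed. The remaining 50 members did not pass. Of the tested members 80 reached the limit of the filter (10 counts in a library of median size) in libraries of both groups. Cox8b and Cox6a2 reached it in the 3 knockouts and in no control, so that they could be tested only because they were high there, and nothing is read from their tests. Of the other 80 members 30 (37.5%) were higher, with a median log2 fold change of 0.18. The log2 fold change was above 0 for 77 of 82 members, whereas the background was 49.6%. In 47 members, or 45 without Cox8b and Cox6a2, every knockout library lay above every control library (background 18.3%), and in 1 every knockout library lay below (background 18%).

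The size of the difference was modest. The median log2 fold change of the 82 members was 0.18, which corresponds to a level higher by 13.4%, and their quartiles were 0.12 and 0.26. Across all tested genes the median was -0.004 with quartiles of -0.26 and 0.26. Of the 80 members that reached the filter in both groups, Cox7a1 of complex IV alone passed with a log2 fold change of at least 1, the limit the study used, which 3.97% of all tested genes did in this direction. No member passed at a log2 fold change of at most -1, as did 3.08% of all tested genes. Most members thus sat in a narrow band above 0, in contrast to the broad symmetric distribution of the other genes. This comparison was not matched for expression level, and the band was not particular to the members. Of 85 tested genes for cytosolic ribosomal proteins 80 were above 0, with a median of 0.20. Genes of one pathway share libraries and are not independent of each other. The shares of members therefore describe them and are not a test of them as a group.

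**Figure D1:**
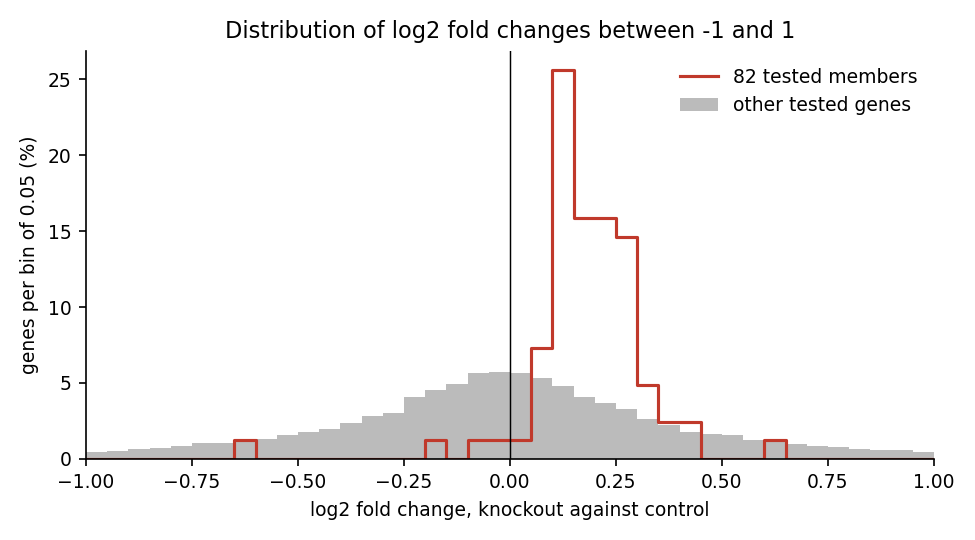
Histogram of log2 fold changes (x axis, knockout against control) in bins of 0.05 for the 82 tested members (red line) and the other tested genes (grey bars), each as percent of its own group (y axis). The axis ends at -1 and 1 and leaves out 1 member below and 2 above, and most members lie between 0.05 and 0.35, whereas the other genes are centred near 0.

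The difference was not of the same size in each knockout library. For the 79 tested subunits the median level relative to the control mean was 101%, 101%, 96.7% and 101% in controls, and 121%, 115% and 107% in knockouts. Knockout replicate 1 exceeded the highest control in 73 of the 79 subunits, knockout replicate 2 in 72 and knockout replicate 3 in 47. Groups therefore did not overlap in the median level, but knockout replicate 3 stood much closer to the controls than replicate 1. All members together took 0.845%, 0.901%, 0.830% and 0.803% of the counts in controls and 1.00%, 1.06% and 0.901% in knockouts.

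The number of passing members depended on the libraries used. With 1 library left out, 8 members were higher without knockout replicate 1, and also 8 without knockout replicate 2. Over all tested genes 1209 of 19047 and 850 of 18604 were higher in these fits, against 2122 of 18352 in the main fit. The number of members was 14 without control replicate 2 (all genes 1843 of 18229) or control replicate 3 (1754 of 18383). It was 17 without control replicate 1 (1829 of 18265), 27 without knockout replicate 3 (1525 of 18441) and 29 without control replicate 4 (1695 of 17898). The median log2 fold change stayed between 0.17 and 0.25 in these fits. Ndufa5, Ndufb5, Ndufc2, Uqcrc2, Cox7a1 and Atp5o were the 6 members that passed as higher in the main analysis and in each of the 19 alternatives. These genes were singled out after their values were seen. In the 12 alternatives that keep every library, 13 members passed each time, adding Ndufa1, Ndufa6, Ndufs3, Uqcrc1, Cox7b, Atp5e and Atp5g3.

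Median log2 fold changes were 0.18 in complex I, 0.15 in complex II, 0.19 in complex III, 0.18 in complex IV and 0.21 in complex V. The members that passed as higher were 14 of 35, 2 of 4, 3 of 8, 5 of 16 and 6 of 16, respectively, where the 5 of complex IV include Cox8b. Differences between the complexes were not tested. Summed levels were higher in knockouts on average in each complex. They were 2291 ± 37.4 and 2553 ± 166 CPM for complex I (mean ± SD, n = 4 controls and n = 3 knockouts), 573 ± 16.8 and 632 ± 19.8 CPM for complex II, 791 ± 18.6 and 905 ± 53.6 CPM for complex III, 1671 ± 47.8 and 1865 ± 138 CPM for complex IV, and 3136 ± 102 and 3621 ± 157 CPM for complex V.

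**Figure D2:**
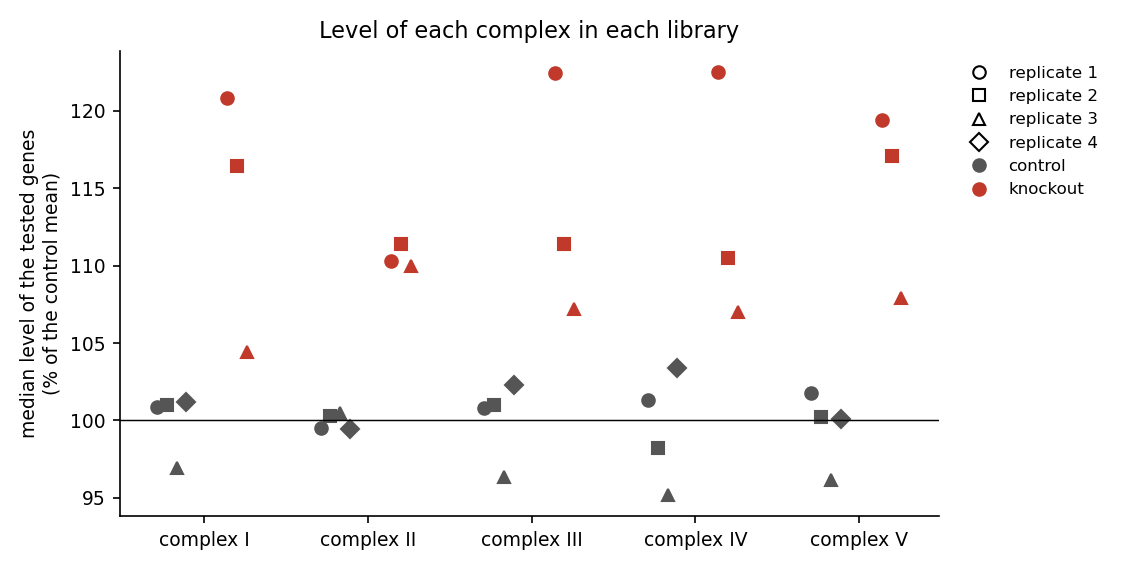
Median level of the tested subunit genes of each complex (y axis, percent of the control mean) in each of the 4 control (grey) and 3 knockout (red) libraries, with the symbol giving the replicate number. All knockout libraries lie above all controls in every complex, and knockout replicate 3 (104% in complex I) lies closer to the controls than knockout replicate 1 (121%).

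Complex I, the NADH dehydrogenase, consists of a peripheral arm that oxidizes NADH and reduces ubiquinone and a membrane arm that pumps protons. Of 16 tested genes for the peripheral arm 7 were higher and 1 was lower, and of 19 for the membrane arm 7 were higher. Median log2 fold changes of both arms were 0.18. Ndufs1, which carries iron-sulfur clusters, had 129, 126, 123 and 120 CPM and then 119, 121 and 120 CPM (log2 fold change -0.05 ± 0.05, SE, adjusted p = 0.49). It overlaps genes on the other strand and was named after its values were seen. The core subunit Ndufs3, in contrast, was higher, at 54.0, 54.1, 51.8 and 50.8 CPM in controls and 64.4, 68.4 and 59.2 CPM in knockouts (log2 fold change 0.28 ± 0.06, SE, adjusted p = 0.018, range 0.0056 to 0.066 over the alternatives).

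The largest difference in complex I was found for Ndufa5, an accessory subunit of the peripheral arm. Ndufa5 had 34.4, 36.2, 30.9 and 33.4 CPM in controls and 49.3, 46.1 and 40.8 CPM in knockouts, with no overlap. The log2 fold change was 0.43 ± 0.09 (SE, adjusted p = 0.012, range 6.1e-04 to 0.048 over the alternatives). Ndufa12, another accessory subunit of this arm, had 72.0, 72.2, 65.3 and 64.7 CPM against 92.8, 90.5 and 76.2 CPM (0.34 ± 0.08, SE, adjusted p = 0.027, range 0.011 to 0.096). Ndufa9, which is placed near the ubiquinone site, reached 89.4, 84.2, 86.7 and 83.1 CPM in controls and 98.3, 102 and 93.5 CPM in knockouts. It was among the passing members with the smallest change (0.19 ± 0.05, SE, adjusted p = 0.039), and fitted with the replicate number as a blocking term it no longer passed (adjusted p = 0.11).

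Ndufv3 was the exception. This accessory subunit of the NADH-oxidizing tip was at 65.1, 64.8, 64.6 and 64.7 CPM in the 4 controls and at 59.0, 59.5 and 54.4 CPM in the 3 knockouts. Its controls were nearly identical, and all knockouts lay below them. The level fell by 0.17 on the log2 scale (SE 0.05, adjusted p = 0.049), but the adjusted p was 0.10 with the replicate block and ranged from 0.036 to 0.30 over the alternatives, and no fit with 1 library left out retained the call.

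In the membrane arm, Ndufb9, Ndufa1 and Ndufc2 had the highest levels of complex I per length, at 116 ± 4.39, 111 ± 3.87 and 107 ± 2.29 CPM per kb of exon in controls (SD, n = 4), of which Ndufc2 did not differ from the next gene, Ndufa8 at a mean of 106, beyond the spread. Ndufa1, an X-linked gene for a small accessory subunit, was at 47.8, 47.1, 44.3 and 47.6 CPM in controls and 68.2, 56.5 and 53.5 CPM in knockouts. Knockout replicate 1 was well above the other two. The log2 fold change was 0.35 ± 0.09 (SE, adjusted p = 0.029, range 0.010 to 0.060 over the alternatives). Ndufc2 had 81.0, 81.8, 77.8 and 80.5 CPM against 101, 95.2 and 92.6 CPM (0.26 ± 0.05, SE, adjusted p = 0.011), and passed in all alternatives with a range of 3.7e-04 to 0.039. Ndufb9 had 72.3, 75.8, 73.8 and 78.9 CPM in controls and 93.9, 86.5 and 80.0 CPM in knockouts. Its groups did not overlap, but it did not pass (0.21 ± 0.07, SE, adjusted p = 0.062). Ndufb11, also X-linked, was at 75.7, 74.6, 71.4 and 68.2 CPM and then at 89.8, 88.8 and 78.1 CPM. It passed with 0.24 ± 0.07 (SE, adjusted p = 0.042) and not with the replicate block (adjusted p = 0.060). Ndufb5 varied little within the groups, with 57.6, 56.2, 54.4 and 55.0 CPM in controls and 68.6, 65.3 and 64.5 CPM in knockouts (0.24 ± 0.05, SE, adjusted p = 0.012, range 6.8e-04 to 0.0496), although it overlaps Mrpl47 on the other strand.

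Complex II, succinate dehydrogenase, links the respiratory chain to the citric acid cycle and has all of its subunits encoded in the nucleus. Sdha, the flavoprotein, was at 251, 279, 263 and 239 CPM in controls and 265, 305 and 280 CPM in knockouts, with overlap between the groups (log2 fold change 0.14 ± 0.07, SE, adjusted p = 0.24). The iron-sulfur protein gene Sdhb was at 118, 121, 123 and 120 CPM and then at 130, 133 and 126 CPM (0.11 ± 0.05, SE, adjusted p = 0.15). These catalytic subunits thus did not pass. Sdhc and Sdhd, which anchor the enzyme in the membrane, did. Sdhc was even within groups, with 121, 120, 119 and 119 CPM in controls and 135, 133 and 134 CPM in knockouts (0.16 ± 0.04, SE, adjusted p = 0.030). Sdhd had 77.0, 73.3, 74.0 and 76.3 CPM against 88.3, 84.0 and 83.9 CPM (0.18 ± 0.05, SE, adjusted p = 0.030). With the replicate block none of the complex II genes passed, with an adjusted p of 0.089 for Sdhc and 0.059 for Sdhd.

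In complex III, the cytochrome c reductase, both core proteins were higher. Uqcrc1 had 152, 156, 152 and 143 CPM in controls and 184, 184 and 173 CPM in knockouts (log2 fold change 0.26 ± 0.05, SE, adjusted p = 0.013, range 4.5e-04 to 0.053 over the alternatives). Uqcrc2 had 122, 124, 119 and 120 CPM against 145, 145 and 140 CPM (0.24 ± 0.04, SE, adjusted p = 0.0091, range 2.6e-05 to 0.040). In both genes the 3 knockouts lay close together and well above the controls. Uqcrb, a small subunit at the ubiquinone site, was at 70.2, 71.8, 68.0 and 69.0 CPM and then at 89.6, 77.6 and 80.5 CPM (0.24 ± 0.06, SE, adjusted p = 0.028, and 0.066 with the replicate block). The Rieske protein gene Uqcrfs1, which was named after its values were seen, had 97.3, 97.2, 95 and 97.7 CPM and 108, 108 and 104 CPM, and missed the threshold (0.14 ± 0.04, SE, adjusted p = 0.057). The small subunits Uqcr11 and Uqcr10 were the most abundant of the complex per length, with 131 ± 5.61 and 111 ± 7.69 CPM per kb in controls (SD, n = 4). Uqcr11 had 82.2, 85.2, 79.9 and 88.2 CPM in controls and 103, 91.9 and 82.5 CPM in knockouts (0.14 ± 0.08, SE, adjusted p = 0.26). For Uqcr10 the values were 68.9, 63.7, 58.6 and 66.9 CPM and 87.1, 73.5 and 68.9 CPM (0.24 ± 0.09, SE, adjusted p = 0.10, and 0.035 with the replicate block).

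Complex IV, cytochrome c oxidase, held the members with the highest levels per length of annotated exons. In CPM alone, Atp5b and Atp5a1 of complex V were higher, at control means of 896 and 632 CPM against 294 CPM for Cox6a1. The annotated exon length was 702 bases for Cox6a1 and 4237 for Atp5b, and the ranking depends on it. Per length, Cox6a1 ranked first with 419 ± 17.6 CPM per kb in controls (SD, n = 4), followed by Cox8a with 341 ± 13.1 and Cox4i1 with 217 ± 2.71. The gaps between these neighbours exceeded the SDs, whereas Cox4i1 and the next gene, Atp5b at 211 ± 14.0 CPM per kb, did not differ beyond their spread. The leading 6 genes kept their order in knockouts. Cox6a1 was also the subunit gene of complex IV with the smallest difference, at 303, 300, 276 and 298 CPM in controls and 310, 306 and 284 CPM in knockouts (log2 fold change 0.03 ± 0.06, SE, adjusted p = 0.77, 95% confidence interval -0.11 to 0.17). Its value was below 0 without control replicate 3 and with offsets for gene length or GC content.

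Genes of the nuclear core of complex IV that passed were Cox4i1, Cox5a and Cox7b. Cox4i1, the common isoform of the largest nuclear subunit, had 337, 340, 330 and 338 CPM in controls and 414, 396 and 361 CPM in knockouts (0.22 ± 0.06, SE, adjusted p = 0.037, and 0.070 with the replicate block). Cox5a, a matrix-side subunit, had 60.9, 59.2, 60.2 and 65.9 CPM against 70.8, 70.3 and 69.7 CPM (0.19 ± 0.05, SE, adjusted p = 0.039). Cox7b, encoded on the X chromosome, was at 76.8, 77.1, 74.3 and 80.9 CPM in controls and 103, 90.2 and 86.9 CPM in knockouts (0.27 ± 0.07, SE, adjusted p = 0.029). Ndufa4 differed by a similar amount but more unevenly, with 135, 124, 120 and 140 CPM and then 178, 143 and 143 CPM. It did not pass (0.25 ± 0.10, SE, adjusted p = 0.099), and its adjusted p was 0.034 with the replicate block.

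Complex V, the ATP synthase, had the highest summed level and 16 of 16 genes with a log2 fold change above 0. The catalytic head is formed largely by the products of Atp5a1 and Atp5b. Atp5b, the catalytic beta subunit, was at 908, 959, 900 and 816 CPM in controls and 1035, 1100 and 971 CPM in knockouts. Although all knockouts were above all controls, it did not pass (log2 fold change 0.21 ± 0.08, SE, adjusted p = 0.087). Atp5a1, the alpha subunit, likewise did not pass with 646, 667, 646 and 567 CPM against 702, 779 and 718 CPM (0.21 ± 0.08, SE, adjusted p = 0.078). The epsilon subunit gene Atp5e was the member of the head that passed, at 82.4, 74.1, 75.2 and 86.3 CPM and then at 119, 98.1 and 98.1 CPM (0.40 ± 0.09, SE, adjusted p = 0.019, range 0.0029 to 0.064 over the alternatives).

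The stalk that connects the head to the membrane contained Atp5o, the member with the largest difference in complex V. Atp5o encodes the oligomycin sensitivity-conferring protein. Its values were 135, 122, 113 and 116 CPM in controls and 176, 167 and 149 CPM in knockouts (0.44 ± 0.08, SE, adjusted p = 0.010, range 4.0e-04 to 0.043 over the alternatives). Annotated exons of Atp5o overlap those of Donson on the same strand, and Donson had 3211 counts in all libraries against 43029 for Atp5o. Atp5j, coding for a coupling factor of the stalk, was at 103, 113, 107 and 108 CPM and then at 130, 128 and 116 CPM (0.21 ± 0.06, SE, adjusted p = 0.043, and 0.088 with the replicate block), and it overlaps Gabpa on the other strand. In the membrane part, Atp5j2 had 93.5, 92.4, 89.3 and 96.7 CPM in controls and 124, 108 and 102 CPM in knockouts (0.26 ± 0.07, SE, adjusted p = 0.042). Atp5mpl, a small proteolipid, had 46.6, 47.0, 45.4 and 50 CPM against 65.3, 53.2 and 54.6 CPM (0.29 ± 0.08, SE, adjusted p = 0.042). In these last 2 genes it was knockout replicate 1 that stood out from the other knockouts.

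**Figure D3:**
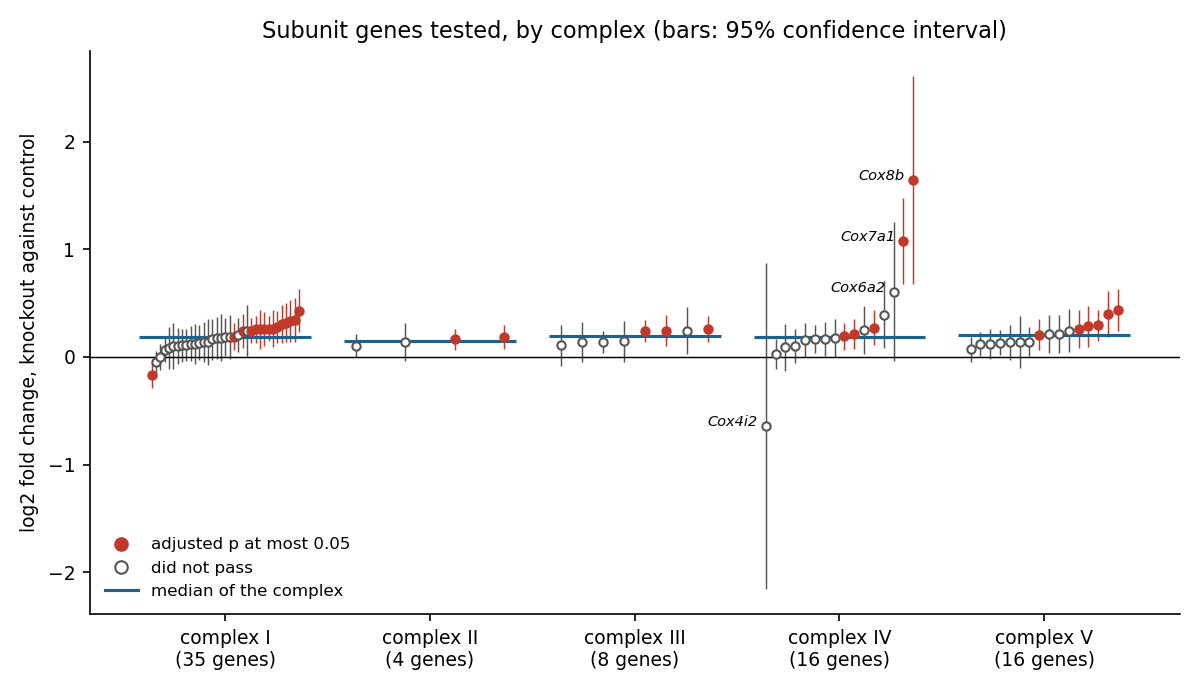
Log2 fold change of each tested subunit gene (y axis, knockout against control), ordered by size within each complex (x axis), with 95% confidence intervals. Red points passed at an adjusted p of at most 0.05, open points did not, and the blue lines mark complex medians of 0.15 to 0.21. Cox7a1 (1.08) lies above the other genes that reached the count filter in both groups, and Cox8b (1.64) and Cox6a2 (0.61) reached it in knockouts only.

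Several subunits exist as alternative paralogs, of which one is common to most tissues and another is typical of heart and skeletal muscle, lung or testis. Muscle isoforms of complex IV were expressed at very low levels in oligodendroglia. Cox7a1 was at 1.48, 1.10, 1.07 and 1.28 CPM in controls and 2.67, 2.69 and 2.44 CPM in knockouts, with raw counts of 48, 48, 41 and 60 and then 65, 172 and 141. Its log2 fold change was 1.08 ± 0.17 (SE, adjusted p = 0.0055, range 6e-06 to 0.028 over the alternatives). The common paralog Cox7a2 had 87.3, 83.6, 78.0 and 92.4 CPM in controls and 103, 87.2 and 82.2 CPM in knockouts (0.09 ± 0.09, SE, adjusted p = 0.55). Cox7a1 thus amounted to 1.70%, 1.33%, 1.38% and 1.40% of Cox7a2 in controls and to 2.60%, 3.10% and 2.99% in knockouts.

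Cox8b rested on few counts, namely 7, 3, 3 and 7 in controls and 11, 27 and 19 in knockouts. This corresponds to 0.215, 0.0687, 0.0780 and 0.149 CPM and to 0.452, 0.422 and 0.329 CPM. No control reached the limit of the count filter, and with at least 10 counts required in every library the gene cannot be tested. The common paralog Cox8a was at 191, 190, 175 and 188 CPM and then at 227, 204 and 192 CPM (0.16 ± 0.07, SE, adjusted p = 0.14). Cox6a2, the third muscle isoform, had 7 to 9 counts in controls and 8, 17 and 19 in knockouts. It was at 0.215, 0.183, 0.234 and 0.170 CPM and 0.329, 0.266 and 0.329 CPM, and it too met the filter in knockouts only. The testis isoform Cox6b2 did not pass, with 2.58, 2.52, 2.16 and 2.34 CPM against 3.25, 3.07 and 3.15 CPM (0.39 ± 0.13, SE, adjusted p = 0.068), while its common counterpart Cox6b1 had 139, 138, 136 and 143 CPM and 176, 152 and 143 CPM (0.18 ± 0.08, SE, adjusted p = 0.14). Cox4i2, an isoform known from lung, was at 0.123, 0.229, 0.130 and 0.618 CPM in controls and 0.123, 0.141 and 0.260 CPM in knockouts (-0.64 ± 0.65, SE, adjusted p = 0.53), and control replicate 4 was high.

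The balance between paralogs was compared by the log2 ratio of both genes in each library (0.5 added to each normalized count), with an exact two-sided permutation test over all 35 assignments of the libraries to groups of 4 and 3. The smallest p this design allows is 0.029. With adjustment over 9 ratios at least 6 of them would have to be at this p for any to pass, so that a single ratio could not pass, however clear. The ratio of Cox7a1 to Cox7a2 was higher in knockouts by 1.00 on the log2 scale (exact p = 0.029, adjusted p = 0.086), and no library of one group reached the other. For Cox8b to Cox8a the difference was 1.52 and for Cox6a2 to Cox6a1 it was 0.56. Both ratios were tested and count among the 9 of the adjustment. Nothing is read from these tests, as Cox8b and Cox6a2 met the count filter in knockouts only. The ratio of Cox6b2 to Cox6b1 differed by 0.22 (exact p = 0.086, adjusted p = 0.11) and that of Cox4i2 to Cox4i1 by -0.60 (exact p = 0.46, adjusted p = 0.51). Of the 9 ratios 3 had an unadjusted p under 0.05, namely Cox7a1 to Cox7a2 and the c-ring ratios of Atp5g3 and Atp5g1 given below. These c-ring ratios are formed from the counts of the same genes and are not independent of each other.

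The ring of c subunits in complex V is built from identical proteins that come from 3 genes. Atp5g3, the most abundant, was at 200, 203, 184 and 191 CPM in controls and 249, 242 and 224 CPM in knockouts (log2 fold change 0.29 ± 0.06, SE, adjusted p = 0.014). Atp5g1 had 93.9, 89.4, 82.9 and 87.1 CPM and then 101, 95.5 and 92.2 CPM (0.12 ± 0.06, SE, adjusted p = 0.19), and Atp5g2 had 96.8, 93.4, 90.2 and 94.5 CPM and then 106, 101 and 102 CPM (0.13 ± 0.05, SE, adjusted p = 0.089). Relative to the sum of the other two genes, Atp5g3 amounted to 105%, 111%, 106% and 105% in controls and 121%, 123% and 116% in knockouts. The log2 ratio was higher by 0.17 (exact p = 0.029, adjusted p = 0.086). For Atp5g1 this share was 30.2% to 31.6% in controls and 27.9% to 28.4% in knockouts, a difference of -0.12 (exact p = 0.029, adjusted p = 0.086), and for Atp5g2 the difference was -0.11 (exact p = 0.086, adjusted p = 0.11). Reads of Atp5g1 may be shared with Gm10039, a near-identical copy that received 189 counts against 28118.

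**Figure D4:**
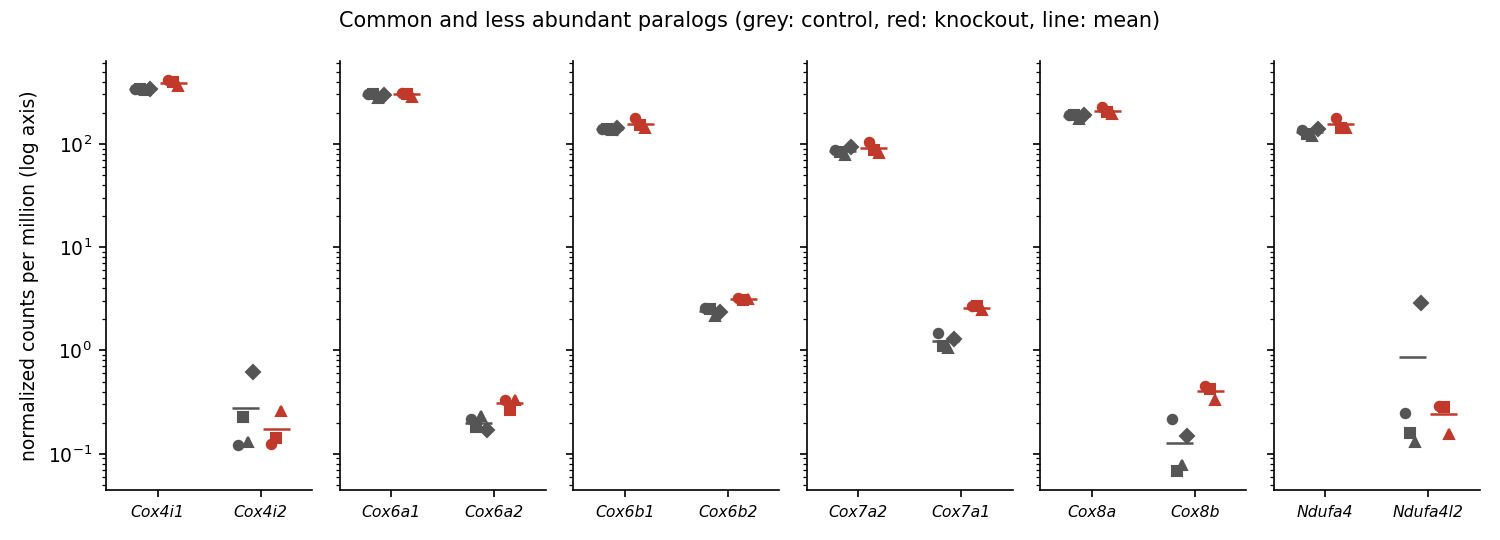
Normalized CPM (y axis, log scale) of common and less abundant paralogs in each control (grey) and knockout (red) library, with the group mean as a line and the symbol shape giving the replicate (circle 1, square 2, triangle 3, diamond 4). Cox7a1 is higher in every knockout than in any control. Cox8b and Cox6a2 reached the count filter in knockouts only, and nothing is read from their difference. Control replicate 4 alone is high for Cox4i2 and Ndufa4l2.

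Upstream sequences are shown for Cox7a1, the muscle isoform that passed, and its common paralog Cox7a2, which did not, as well as for Ndufc2 and Atp5o, 2 of the members that passed in every alternative. These genes were chosen after their values were seen. The windows are the 250 bases before the RefSeq transcription start (GRCm38.p6), read 5′ to 3′ on the strand of the gene and without bases that fall inside the gene as annotated. Capitals mark 6-letter words of the GC-box and CACCC-box type bound by Krüppel-like factors (AC or CC, followed by G, A or T and then CCC, on either strand).
Cox7a1: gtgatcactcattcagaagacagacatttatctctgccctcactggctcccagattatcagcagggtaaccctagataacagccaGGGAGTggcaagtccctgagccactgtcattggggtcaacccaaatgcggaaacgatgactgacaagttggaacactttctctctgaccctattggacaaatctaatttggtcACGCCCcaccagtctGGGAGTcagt
Cox7a2: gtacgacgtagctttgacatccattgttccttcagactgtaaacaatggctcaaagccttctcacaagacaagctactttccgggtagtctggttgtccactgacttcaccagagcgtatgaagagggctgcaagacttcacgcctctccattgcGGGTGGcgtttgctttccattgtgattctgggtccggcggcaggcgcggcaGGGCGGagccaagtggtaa
Ndufc2: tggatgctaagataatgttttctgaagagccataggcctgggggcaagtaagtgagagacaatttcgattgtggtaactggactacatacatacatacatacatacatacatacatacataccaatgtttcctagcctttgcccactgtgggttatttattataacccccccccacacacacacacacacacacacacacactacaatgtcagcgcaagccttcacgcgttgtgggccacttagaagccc
Atp5o: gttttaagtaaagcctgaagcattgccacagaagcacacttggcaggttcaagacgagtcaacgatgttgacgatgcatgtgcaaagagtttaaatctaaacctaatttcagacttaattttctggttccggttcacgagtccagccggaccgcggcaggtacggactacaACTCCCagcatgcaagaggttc
The window of Cox7a1 lies at chr7:30183921-30184143 (plus strand), that of Cox7a2 at chr9:79759879-79760103 (minus strand), that of Ndufc2 at chr7:97399753-97400002 (plus strand) and that of Atp5o at chr16:91931688-91931880 (minus strand). In the stretches as printed, the words numbered 3 in Cox7a1, 2 in Cox7a2 and 1 in Atp5o, and none was found in Ndufc2, which says only that these letters are not in this window.

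Such words are common upstream of genes in general. The motifs searched were chosen with values of the members already known. For the shares that follow, the full window of 250 bases was searched, in which Cox7a1 holds 4 words and Atp5o 2. Such a window was found for 65 of the tested members, and 50 of them (76.9%) held at least 1 word, against 72.1% of all 27025 genes in the same table. The share was 73.1% among the 26 matched members that passed as higher and 78.9% among the 38 that did not pass. Of the other motifs searched on both strands, the core bound by the ETS factor GABP (CCGGAAG), a known regulator of respiratory genes, was present in 16.9% of members and 7.07% of all genes. The site of the nuclear respiratory factor NRF1 (GCGC, any base, then TGCGC) was present in 18.5% and 3.87%, respectively. Among members that passed as higher these shares were 11.5% and 15.4%, and among those that did not pass they were 21.1% for each motif. The YY1 core (AAGATGGC) was found in 0 of 65 members and 1.58% of all genes, and a TATA box (TATAAA) in 7.69% and 13%. A match describes the sequence and is not a binding site, and the windows of members had a GC content of 55.2% against 52% for all genes (medians).

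Of the members 3 are named like subunits without being part of a complex, and 1 of them passed. Cox7a2l, which encodes an assembly factor of respiratory supercomplexes, had 84.0, 79.7, 94.0 and 84.0 CPM in controls and 99.3, 96.5 and 102 CPM in knockouts (log2 fold change 0.22 ± 0.07, SE, adjusted p = 0.049, and 0.062 with the replicate block). Ndufa4l2, a gene known to respond to low oxygen, was at 0.246, 0.160 and 0.130 CPM in control replicates 1 to 3, at 2.90 CPM in control replicate 4 and at 0.288, 0.281 and 0.156 CPM in knockouts. Its log2 fold change of -1.88 ± 1.2 (SE, adjusted p = 0.31) rests on this single control, and the log2 ratio to Ndufa4 differed by -0.83 with control replicate 4 and by 0.13 without it (exact p = 0.77 with all libraries). Atp5s, a coupling factor gene named after its values were seen, had 7.28 to 8.39 CPM in controls and 8.25 to 8.75 CPM in knockouts (0.10 ± 0.10, SE, adjusted p = 0.52). The 6 members that failed the filter on low counts were Ndufa11b, Ndufb4c, Ndufs6b, Cox6c2, Cox7b2 and Cox8c. None exceeded 0.160 CPM in any library, and Cox8c had 0 counts in all 7, which allows up to 0.0469 to 0.123 CPM per library (3 counts, counting error only).

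The other genes of the pathway gave a less uniform picture. Of 108 tested genes in 7 lists that cover mitochondrially encoded subunits, electron carriers and further subunits, assembly factors, regulators, the citric acid cycle and carriers, 16 (14.8%) were higher, near the 11.6% of all tested genes, and 4 were lower, with a median log2 fold change of 0.06. The citric acid cycle came closest to the subunits, with 5 of 13 genes higher and a median of 0.18. Idh3g, a subunit of the NAD-dependent isocitrate dehydrogenase, was at 71.2, 69.2, 67.2 and 55.9 CPM in controls and 91.0, 97 and 92.5 CPM in knockouts (0.51 ± 0.09, SE, adjusted p = 0.0073). Suclg2, a subunit of succinate-CoA ligase, had 31.5, 32.3, 29.2 and 23.5 CPM against 43.1, 43.9 and 47.0 CPM (0.62 ± 0.11, SE, adjusted p = 0.0087). In both genes control replicate 4 was the lowest library. Idh3b, Suclg1 and Dld were the other 3 that passed.

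Assembly factors were mixed. For complex I, 4 of 16 were higher. By adjusted p the first was Ndufaf6 with 4.30, 3.64, 3.33 and 3.98 CPM in controls and 6.08, 6.01 and 5.46 CPM in knockouts (0.62 ± 0.13, SE, adjusted p = 0.014), followed by Ndufaf3 with 14.5, 13.8, 14.8 and 14.4 CPM and 19.5, 18.4 and 16.1 CPM (0.32 ± 0.09, SE, adjusted p = 0.033, and 0.087 with the replicate block). The list median was 0.06. For the other complexes 4 of 33 (12.1%) were higher, a share near that of all tested genes, and 1 was lower, with a median of 0.08. Bcs1l, which inserts the Rieske protein into complex III, had 15.2, 16.1, 15.1 and 14.9 CPM and 20.3, 20.3 and 18.3 CPM (0.36 ± 0.07, SE, adjusted p = 0.013). Cox20, a chaperone for complex IV, had 4.79, 6.41, 5.80 and 4.88 CPM and 7.07, 8.40 and 7.70 CPM (0.50 ± 0.14, SE, adjusted p = 0.039, and 0.051 with the replicate block). Cmc2 was the gene of this list that was lower, with 13.5 to 15.8 CPM in controls and 10.9 to 12.6 CPM in knockouts (-0.33 ± 0.09, SE, adjusted p = 0.042, and 0.079 with the replicate block).

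Among 17 regulators of respiratory genes, 1 was higher and 1 lower, and the median was 0.00. Ppargc1a, the coactivator PGC-1alpha, was at 16.9, 17.4, 12.2 and 10 CPM in controls and 23.9, 23.9 and 25.4 CPM in knockouts (0.79 ± 0.19, SE, adjusted p = 0.024). Gabpb2, a partner of GABP, was at 39.2, 34.5, 38.4 and 38.9 CPM and at 29.5, 27.3 and 33.5 CPM (-0.33 ± 0.09, SE, adjusted p = 0.034). Of 5 genes for subunits and carriers outside the name pattern, Atpif1 passed. This inhibitor of ATP hydrolysis by complex V had 67.3, 70.1, 66.1 and 68.2 CPM in controls and 97.1, 90.8 and 81.9 CPM in knockouts (0.40 ± 0.07, SE, adjusted p = 0.0061), whereas Usmg5, which encodes a small complex V subunit, was at 70.5, 71.0, 64.3 and 76.6 CPM and 97.5, 83.4 and 74.6 CPM and did not pass (0.27 ± 0.10, SE, adjusted p = 0.093, and 0.041 with the replicate block). Of 11 ATP and substrate carriers Vdac1, a channel of the outer membrane, was higher with 290, 304, 286 and 290 CPM and 348, 351 and 334 CPM (0.23 ± 0.05, SE, adjusted p = 0.015). The pyruvate carrier gene Mpc1 had 56.5 to 69.7 CPM and 49.9 to 53.1 CPM and did not pass (-0.24 ± 0.08, SE, adjusted p = 0.072).

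Of the 13 mitochondrially encoded subunits 0 were higher, also at an unadjusted p under 0.05, and 2 were lower, with a median log2 fold change of -0.15. Several of these genes are hardly countable, however. mt-Co2, mt-Co3 and mt-Atp6 match nuclear copies without a difference over nearly their whole length, and these copies had 340, 387 and 387 counts in all libraries against 281, 466 and 265 for the genes themselves. Together with mt-Atp8 these genes were below 3 CPM in every library, and their values are uncertain. The most abundant, mt-Co1, was at 1791, 2052, 1686 and 1562 CPM in controls and 1356, 1531 and 1948 CPM in knockouts (-0.14 ± 0.14, SE, adjusted p = 0.54). mt-Cytb had 856, 997, 783 and 674 CPM and 719, 867 and 1100 CPM (0.11 ± 0.17, SE, adjusted p = 0.69), and mt-Nd5 had 717, 869, 721 and 669 CPM and 550, 652 and 865 CPM (-0.11 ± 0.16, SE, adjusted p = 0.67). In these genes the order of the knockout libraries was opposite to that of the nuclear subunits, with replicate 3 highest and replicate 1 lowest, and the groups overlapped. Over the alternatives the log2 fold change ranged from -0.30 to 0.05 for mt-Nd5 and from -0.05 to 0.27 for mt-Cytb, and that of mt-Nd1, mt-Nd2 and mt-Nd6 changed sign as well. It stayed below 0 for mt-Co1 (-0.29 to -0.009) and mt-Nd4 (-0.32 to -0.008). Both genes that passed, mt-Nd3 with 3.35, 5.42, 3.93 and 3.32 CPM in controls and 0.411, 0.0313 and 0.0520 CPM in knockouts (-5.05 ± 0.71, SE, adjusted p = 0.0039) and mt-Nd4l with 0.806 to 1.07 CPM and 0.0693 to 0.266 CPM (-2.56 ± 0.45, SE, adjusted p = 0.0080), are uncertain. Nuclear copies match mt-Nd4l over 294 bases without a difference and mt-Nd3 over 345 bases with 1 mismatch, so that unique counting can remove or split their reads.

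Ribosomal protein genes, which like the subunits are short and abundantly transcribed, were compared as well. Of 78 tested genes for the mitochondrial ribosome 12 (15.4%) were higher, near the share of all tested genes, and 0 were lower (background 12.2%). Their median was 0.11, and 63 of 78 were above 0 (background 49.6%). Every knockout lay above every control in 23 (background 18.3%) and below in 0 (background 18%). The smallest adjusted p were those of Mrpl23 (0.40 ± 0.07, SE, adjusted p = 0.0080) and Mrpl13 (0.33 ± 0.06, SE, adjusted p = 0.012). Of 85 for the cytosolic ribosome 33 (38.8%) were higher, with a median of 0.20 and 80 of 85 above 0. Rps14 had 303, 304, 326 and 329 CPM in controls and 422, 401 and 381 CPM in knockouts (0.35 ± 0.06, SE, adjusted p = 0.0077), and Rpl36a had 85.3 to 95.7 CPM and 108 to 122 CPM (0.35 ± 0.06, SE, adjusted p = 0.0089). With the replicate block 12 cytosolic and 7 mitochondrial ribosomal protein genes were higher, and 24 of the 82 respiratory members. In this fit 1741 of all 18352 tested genes were higher.

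**Figure D5:**
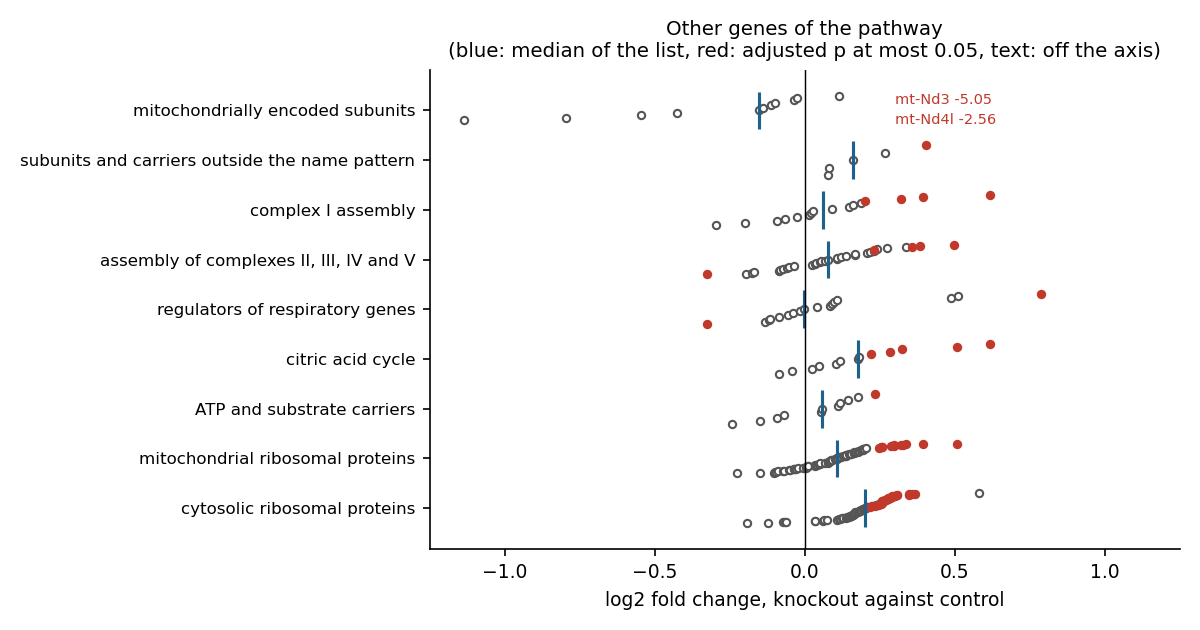
Log2 fold changes (x axis, knockout against control) of the other tested genes of the pathway, with 1 list per row (y axis). Mitochondrial and cytosolic ribosomal protein genes, which are not part of the pathway, are shown for comparison. Red points are genes with an adjusted p of at most 0.05, open points those that did not pass and blue lines list medians. The medians reach from -0.15 for mitochondrially encoded subunits to 0.20 for cytosolic ribosomal proteins, and mt-Nd3 and mt-Nd4l lie off the axis and are given as text.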

How the data were processed

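Reads were trimmed by the authors (Trimmomatic 0.36) and aligned to GRCm38 (STAR 2.5.2b). Uniquely assigned exonic reads were counted with featureCounts of Subread 1.5.2, and the authors deposited whole-number counts per gene without normalization for each of the 7 libraries. The annotation release and the strand setting are not given in the sources used here, so that overlapping and antisense genes (25 members) are uncertain. The kit amplified fragments without molecular identifiers.

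Groups were taken from the labels. Symbols were found for 48970 of the 49315 identifiers. Of 94 symbols that matched the pattern 6 were left out as pseudogenes. Members, lists and named genes were chosen with earlier results of these data known. Named were all complex II genes, in each other complex the 3 with the highest level per length and the 3 lowest and 3 highest log2 fold changes among passing genes, all paralogs, the 3 most abundant mitochondrial genes, the 2 smallest adjusted p of each other list, members below the filter and Klf13, and further genes were named after their values were seen. The values of some genes are not reported here.

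The counts were fitted with edgeR 4.0.16 under R 4.3.3 (filterByExpr by group, TMM factors, robust quasi-likelihood fit with the group as only term). Benjamini-Hochberg adjustment covered all 18352 tested genes. The threshold was an adjusted p of 0.05. CPM are per TMM-scaled library size, and exon lengths were those given with the counts. The method was tested on simulated data. The depth of 24507471 to 59596479 counts limits genes with few counts most. The share of counts on ribosomal RNA-like transcripts ranged from 6.03% to 18%. Deviations from the group means of libraries with the same replicate number correlated at 0.11, 0.46 and 0.17 across genes in the 3 pairs, all above the limit of 0.1 that had been set for calling them paired, while pairs with different numbers gave -0.53 to 0.20. What same-numbered libraries share is not stated. A further fit took the number as a block, in which control replicate 4 has no partner. Other alternatives were DESeq2 1.42.0 (Wald test, size factors), other library sizes, other filters, the ribosomal share as a covariate, limma 3.58.1 (voom), leaving out each library, and offsets for gene length and GC content, the last 2 chosen after seeing the data. Near-identical copies were found by aligning transcripts. Promoter windows came from RefSeq.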

Additional observations from a re-analysis of the deposited data

Results flagged for a closer look

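In 6 members a single control library stood apart from the other 3, out of 82 control groups examined, and chance alone flags about 1 in 20 such groups. Control replicate 1 was low for Ndufa8, with 83.1 CPM against 93.6 to 95.3 CPM in the other controls, and high for Atp5k, with 49.7 CPM against 45.6 to 46.2 CPM. Control replicate 3 was low for Cox8a, with 175 CPM against 188 to 191 CPM. Control replicate 4 was high for Ndufa4l2, with 2.90 CPM against 0.130 to 0.246 CPM, for Cox7c, with 110 CPM against 99.2 to 101 CPM, and for Ndufa6, with 40.8 CPM against 37.6 to 38.1 CPM. Of these genes Ndufa6 passed the comparison of the groups, at 53.9, 45.8 and 44.9 CPM in knockouts (log2 fold change 0.32 ± 0.08, SE, adjusted p = 0.025).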

How the results depend on the processing

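The median log2 fold change of all members was above 0 under all 19 alternatives (0.15 to 0.25), as were the medians of the 5 complexes, whereas counts of passing members varied. Without a filter on low counts 15 of 87 members were higher (complex I 7, II 0, IV 3, V 3, and 10 related genes), against 1535 of all 34026 tested genes. Offsets for gene length left 18 members (complex I 8, II 0, IV 3). Offsets for GC content left 21 (II 1, IV 3, V 3, and 10 related genes). Both kinds of offset were chosen after seeing the data. Over all 18352 tested genes 1959 were higher with length and 1972 with GC offsets, against 2122 in the main fit. The call of Ndufv3, the 1 lower member, remained with DESeq2's Wald test, with at least 10 counts in every library and with length offsets, and 0 members were lower in the other alternatives. With the replicate block 24 members were higher, 22 of them shared with the main result, against 1741 of all 18352 tested genes. Complex II had 0 higher members in this fit, with a median of 0.13. The median of complex II was 0.19 with upper quartile or total count scaling (1 gene higher with total counts) and 0.13 with length offsets. Of the related genes 2 were lower with upper quartile scaling or the stricter filter. The cause of these shifts was not tested.

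With 1 library left out, 8 to 29 members were higher and 0 lower, with medians of 0.168 to 0.246. The ranges were 3 to 16 for complex I, 0 to 2 for complex II, 2 to 3 for complex III, 1 to 5 for complex IV and 2 to 6 for complex V, with medians of 0.14 to 0.25, 0.13 to 0.18, 0.15 to 0.24, 0.15 to 0.25 and 0.18 to 0.25. Of all genes 850 to 1843 were higher and 1254 to 2032 lower, and 335 to 810 and 388 to 577 at a log2 fold change of at least 1. Related genes numbered 4 to 14 higher and 2 to 3 lower. Paralog log2 ratios differed by 0.95 to 1.08 for Cox7a1, 0.16 to 0.29 for Cox6b2, -0.96 to -0.12 for Cox4i2 and -1.253 to 0.125 for Ndufa4l2, where these designs cannot reach an exact p of 0.05. Direction changed for genes that did not pass in either fit. Cox6a1 was at -0.019 with length and -0.040 with GC offsets and at -0.003 to 0.072 with a library left out, and Cox4i2 at 0.089 and Ndufa4l2 at 0.46 with the replicate block. Genes with few counts, such as Cox8b, are limited by depth.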
